A study of Homo sapiens with 2 samples.

Results

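The lysosomal set described here held 49 genes for cathepsins and other lysosomal proteases, glycosidases and sulfatases, lipid-handling proteins, membrane proteins and subunits of the vacuolar proton pump. The genes were chosen by symbol, and all 49 were found among the 46865 loci of the count table. Messenger RNA was sequenced from 1 library of PNU282987-treated cells and 1 Control library, to follow gene expression in a human microglia model exposed to PNU282987, which fully activates the α7 nicotinic acetylcholine receptor. Both libraries came from primitive macrophages differentiated over 30 days from 1231A3, an established human induced pluripotent stem cell line labelled wild-type. The PNU282987 library is described as exposed to the agonist at 100 µM for 12 hours. Which vehicle the Control cells received is not given in the sources used here, and the same protocol text stands on both records. For the PNU282987 library, 1 label gives amyloid β as the treatment, while its title, library name and protocol give PNU282987, and the title was used. With 1 line and 1 library per group, no difference below has a replicate check, no p-value can be given, and every interval covers counting error only.

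The lysosome degrades material delivered by endocytosis, phagocytosis and autophagy, and macrophages and microglia depend on it to clear debris and process antigen. Its interior is acidified by the vacuolar ATPase, whose V1 sector hydrolyses ATP outside the membrane and whose V0 sector carries protons through it. Most of its hydrolases are made as precursors that receive a mannose 6-phosphate tag in the Golgi, and many lysosomal genes carry the E-box CACGTG near their start, to which TFEB, TFE3, MITF and TFEC can bind.

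The PNU282987 library held 36134391 reads and the Control library 39316475, and read counts per 1000000 (CPM) were scaled with TMM factors of 1.01 for PNU282987 and 0.991 for Control. All 12 macrophage markers were measured, with a summed level of 6080 CPM in PNU282987 and 6627 CPM in Control, so the labelled cell type had its defining genes. Of the 12, 7 had a ratio of PNU282987 to Control under 1 and 5 over 1. Their median log2 ratio was -0.22, or -0.078 once the trend over GC content and length described below was subtracted. CD68, a lysosomal glycoprotein, had 1176 CPM in PNU282987 and 1692 CPM in Control, and CSF1R, the receptor for the macrophage growth factors, had 1059 and 1291 CPM in the same order. ITGAM, the integrin chain of complement receptor 3, was 3.44-fold higher in PNU282987. None of the 8 pluripotency markers reached a mean of 1 CPM. Markers of other cell types differed between the libraries: 8 mesenchymal markers summed to 3077 CPM in PNU282987 and 2719 CPM in Control and 8 markers of granulocyte progenitors to 526 and 791 CPM, with PNU282987 first. Of 8 endothelial markers 4 were measured, 2 of them higher and 2 lower in PNU282987. Their summed level of 107 CPM in PNU282987 and 153 CPM in Control was mostly PECAM1 (84.0 CPM in PNU282987, 135 CPM in Control), an adhesion molecule that leukocytes also carry, while KDR, a VEGF receptor, had 16.2 CPM in PNU282987 and 11.5 CPM in Control. All 8 granulocyte progenitor markers were lower in PNU282987, and their part in the results below was not tested. In bulk RNA, fewer cells of a type and less RNA per cell cannot be told apart.

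The lysosomal genes were slightly lower in the PNU282987 library as a set, with no change of 2-fold in any of them. Of the 49 genes, 40 had a ratio of PNU282987 to Control under 1 and 9 a ratio over 1. The median log2 ratio was -0.27, against -0.0084 over the 14269 loci whose mean reached 1 CPM and -0.011 over the 2011 loci with at least 100 CPM, the range in which 40 of the 49 genes lay. The 49 genes took up 4.56% of PNU282987 reads (exact 95% binomial interval 4.55 to 4.56%) and 5.00% of Control reads (4.99 to 5.01%). Without the 3 genes with the most reads, CTSB, PSAP and CTSD, the remaining 46 took up 2.04% of PNU282987 reads and 2.40% of Control reads.

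No lysosomal gene was past 2-fold in either direction, where 2.96% of all loci compared were past 2-fold higher and 2.81% past 2-fold lower. At 1.5-fold, 1 gene was higher, TMEM106B, and 0 were lower, against 8.77% of all loci higher and 8.66% lower. Both counts turned once the trend over GC content and length described next was subtracted: TMEM106B, at a log2 ratio of 0.47, was no longer past 1.5-fold, and CTSC, at -0.74, was 1.5-fold lower. The 8.77% and 8.66% of all loci are shares before subtraction and cannot be set beside these counts. The counting intervals, which are narrow at these depths, lay below equality for 38 genes, above it for 6 and across it for 5. Over all loci 33.6% had an interval below equality and 33.5% above it, and among loci with at least 100 CPM the shares were 45% and 43.9%. By direction alone, 81.6% of the lysosomal genes had a ratio under 1, where 50.8% of all loci and 51.3% of those with at least 100 CPM did.

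**Figure D1:**
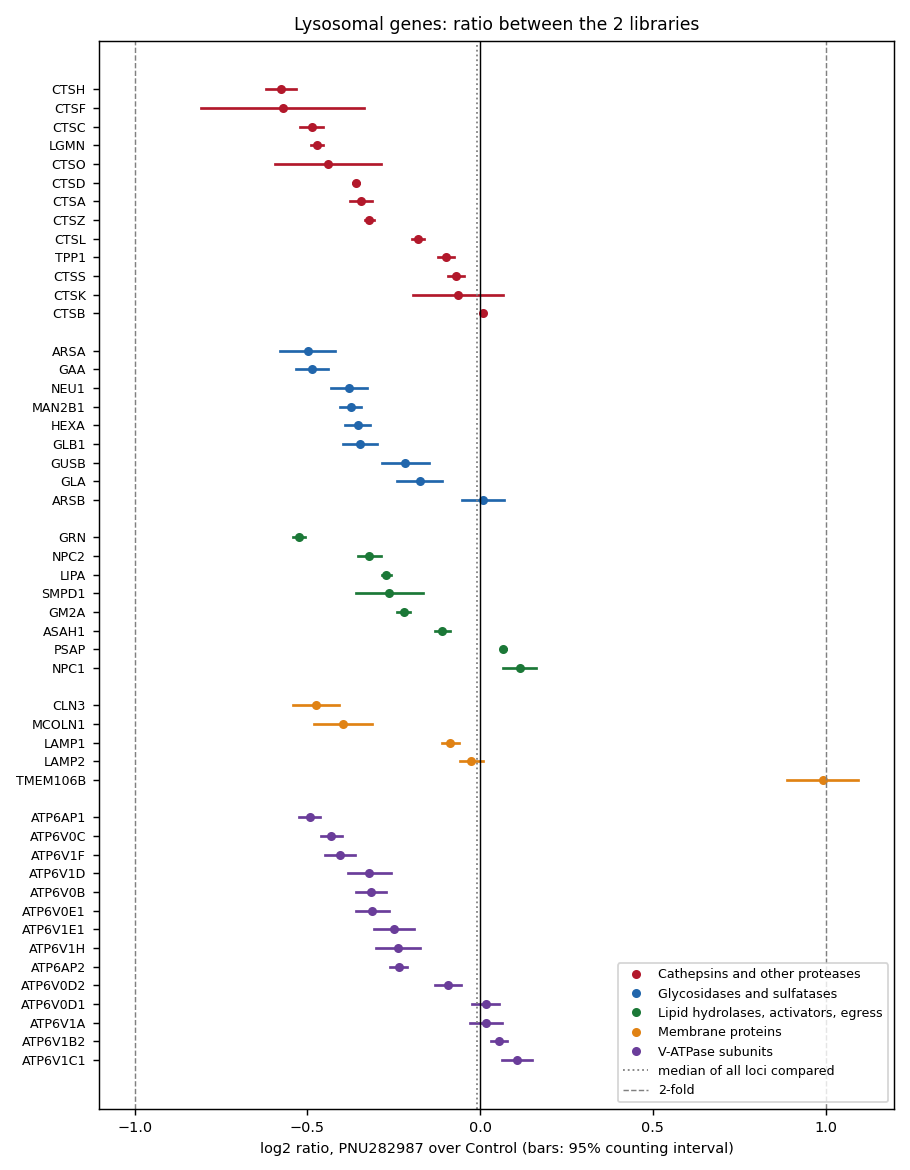
The log2 ratio of PNU282987 to Control for each of the 49 lysosomal genes, grouped by role, with exact 95% counting intervals from 1 library per group. Points run between -0.58 for CTSH and 0.99 for TMEM106B, and 40 of them lie left of equality.

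Ratios in this pair of libraries varied with the GC content of the genes across the whole table. Over 13164 loci the rank correlation of the log2 ratio with GC content was -0.37, and over the 49 lysosomal genes it was -0.52, or -0.49 without TMEM106B. These are correlations across genes that share the same 2 libraries. In steps of GC content the median log2 ratio of all loci was 0.27 around 34% GC and -0.25 around 66%. The 25 lysosomal genes with at least 51.2% GC had a median log2 ratio of -0.37 and the 24 others -0.14. The trend over both GC content and transcript length was then fitted and subtracted from all loci, which gave medians of -0.16 for the GC-rich genes and -0.20 for the others. The median of all 49 was -0.18 after subtraction, and 43 had a ratio under 1, against 50.7% of all loci so treated. Counting intervals then lay below equality for 41 of the 49, against 31.6% of all loci, and above it for 5. Values with this trend subtracted are called trend-subtracted below.

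**Figure D2:**
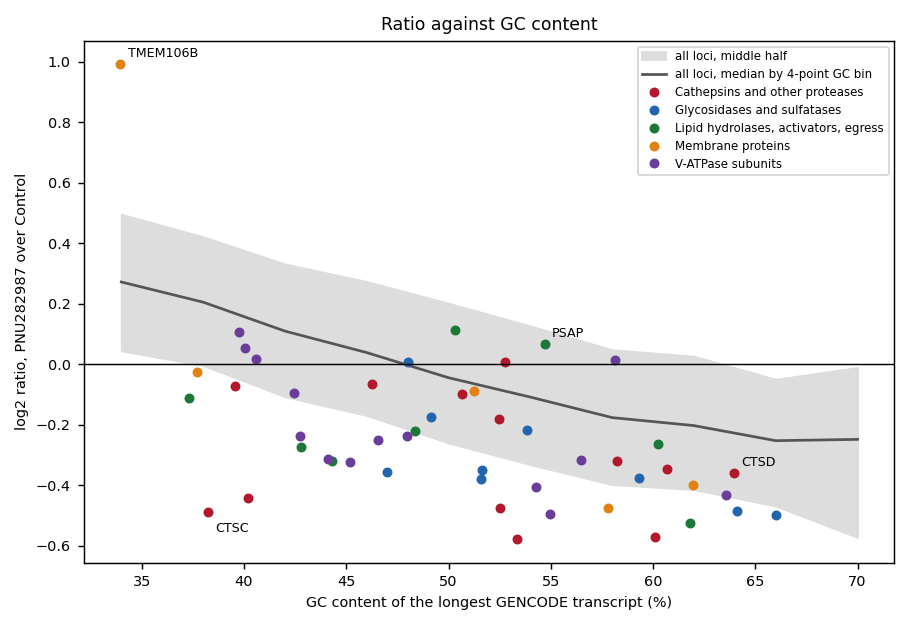
Log2 ratio of PNU282987 to Control against GC content of the longest transcript in percent, for the 49 lysosomal genes (points) over the median and quartiles of all loci in steps of GC content (line and band). The line falls with GC content, by the values 0.27 around 34% and -0.25 around 66%, and most lysosomal genes lie under it.

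Subtracting the trend moved the role groups and many single genes. The median log2 ratio was -0.15 in place of -0.35 for the proteases, -0.22 in place of -0.35 for the glycosidases and sulfatases, -0.23 in place of -0.24 for the lipid-handling genes, -0.16 in place of -0.087 for the membrane genes and -0.16 in place of -0.24 for the proton pump. Of the 49 genes, 36 moved beyond their counting interval and a further 2, ATP6V1B2 and ATP6V1C1, went from an interval above equality to a ratio under 1. CTSD had a log2 ratio of -0.094 in place of -0.36 and CTSZ -0.092 in place of -0.32, so the differences of these GC-rich genes were mostly within the trend. CTSC, with 38.2% GC, had -0.74 in place of -0.49, the lowest of the set. CTSH (-0.44), ATP6AP1 (-0.43), NEU1 (-0.37) and HEXA (-0.49) were among the many genes lower in PNU282987 by both measures. TMEM106B (0.47), PSAP (0.19), NPC1 (0.084) and CTSB (0.063) were above equality by both measures. ATP6V0D1 (0.16) also had ratios over 1 by both, but its interval crossed equality before subtraction. Of the 49 genes, 5 changed sign.

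Promoters are shown for 6 genes, because the E-box is the best known shared feature of lysosomal promoters and these genes span the range of ratios. LAMP1 held the most matches of the genes with a window, GAA, MCOLN1 and CTSF held several, CTSH had the lowest ratio of the set, and TMEM106B the highest. The sequences are the RefSeq bases upstream of the annotated start in GRCh38.p14, 5′ to 3′ on the gene's strand, at chr13:113296989-113297238 (plus strand) for LAMP1, chr17:80101331-80101580 (plus) for GAA, chr19:7522374-7522623 (plus) for MCOLN1, chr11:66568607-66568856 (minus) for CTSF, chr15:78945092-78945296 (minus) for CTSH and chr7:12211044-12211240 (plus) for TMEM106B. The stretches for CTSH and TMEM106B end before the start of another annotated transcript and so hold 205 and 197 bases. Capitals mark every CACGTG.
LAMP1: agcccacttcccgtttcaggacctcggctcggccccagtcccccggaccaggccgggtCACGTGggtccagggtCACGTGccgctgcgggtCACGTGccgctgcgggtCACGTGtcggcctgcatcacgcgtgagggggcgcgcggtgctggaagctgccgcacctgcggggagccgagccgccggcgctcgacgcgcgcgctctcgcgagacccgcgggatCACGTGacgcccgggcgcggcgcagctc
GAA: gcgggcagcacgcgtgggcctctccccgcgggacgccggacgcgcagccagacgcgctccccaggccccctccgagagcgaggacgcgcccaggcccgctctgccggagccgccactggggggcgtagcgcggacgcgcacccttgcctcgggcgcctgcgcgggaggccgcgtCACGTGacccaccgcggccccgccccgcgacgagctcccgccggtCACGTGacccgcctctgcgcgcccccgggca
MCOLN1: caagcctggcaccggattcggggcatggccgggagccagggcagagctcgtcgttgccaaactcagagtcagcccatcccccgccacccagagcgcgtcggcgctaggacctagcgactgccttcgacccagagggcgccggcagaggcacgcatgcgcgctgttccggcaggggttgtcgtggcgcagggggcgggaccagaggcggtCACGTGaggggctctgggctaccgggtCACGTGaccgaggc
CTSF: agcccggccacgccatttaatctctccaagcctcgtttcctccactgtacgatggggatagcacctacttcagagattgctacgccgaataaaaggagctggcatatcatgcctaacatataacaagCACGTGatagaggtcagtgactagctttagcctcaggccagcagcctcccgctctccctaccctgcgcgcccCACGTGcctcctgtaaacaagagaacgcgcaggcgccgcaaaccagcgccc
CTSH: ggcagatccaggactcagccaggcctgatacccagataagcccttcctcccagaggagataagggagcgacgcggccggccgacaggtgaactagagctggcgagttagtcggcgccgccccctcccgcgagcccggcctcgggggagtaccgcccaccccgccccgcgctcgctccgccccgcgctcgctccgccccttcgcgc
TMEM106B: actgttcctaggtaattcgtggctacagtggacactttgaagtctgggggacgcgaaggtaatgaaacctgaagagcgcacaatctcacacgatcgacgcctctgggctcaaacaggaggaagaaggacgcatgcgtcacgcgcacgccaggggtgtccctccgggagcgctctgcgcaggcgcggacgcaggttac

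In these stretches LAMP1, a major glycoprotein of the lysosomal membrane, held 5 copies of CACGTG, beginning 192, 176, 159, 142 and 28 bases before the start, and its window held a further copy after the start. GAA, the glycogen-degrading acid alpha-glucosidase, held 2 copies at 76 and 31 bases. MCOLN1, the calcium channel TRPML1, held 2 at 41 and 14 bases, and the cysteine protease gene CTSF held 2 at 123 and 51 bases. All copies in GAA and MCOLN1 stood in the longer form TCACGTGA, which contains CACGTG. The CTSH and TMEM106B stretches held neither motif, which says only that these letters are not in these windows.

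Both motifs are palindromes, so a match reads alike on both strands. In RefSeq windows that run 250 bases before to 50 bases after a start, 33 of the 49 genes were matched, with 40 windows. CACGTG was in 12 of the 40 windows (30.0%), against 7.26% of all 35116 windows and 9.20% of the 14958 windows of protein-coding loci with at least 1 CPM. TCACGTGA was in 7 of the 40 windows (17.5%), against 0.980% of all windows and 1.66% of those of measured protein-coding loci. The ratio did not separate the genes by motif. The 11 genes with CACGTG had a median log2 ratio of -0.36 with 9 under 1, and the 22 matched genes without it had a median of -0.30 with 20 under 1. With the GC and length trend subtracted, the medians were -0.15 with CACGTG and -0.20 without it, in the other order. LAMP1, with the most copies, had a log2 ratio of -0.087, whereas CTSH, with none, had -0.58. Other genes went the other way: CTSF, with 2 copies, had -0.57, and TMEM106B, with none, had 0.99.

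Levels per length, in reads per kilobase of exon scaled to a sum of 1000000 over all loci with a length, put the order of the lysosomal genes on 1 scale. PSAP was first in PNU282987 at 6835, followed by CTSD at 6332, CTSB at 5652 and CTSZ at 3685. In Control CTSD was first at 7655, followed by PSAP at 6150, CTSB at 5293 and CTSZ at 4338. The order was nearly the same in both libraries, with a rank correlation of 0.992 across the 49 genes, which share both libraries and their gene lengths. A level of at least 1000 was reached by 8 genes in PNU282987 and 10 in Control. At the low end CTSF had 7.73 in PNU282987 and 10.8 in Control, and TMEM106B 14.6 in PNU282987 and 6.92 in Control, so these 2 genes changed places. How neighbours in this order would vary between cultures cannot be given with 1 library each, and the order near the top depends on the length used: with the longest transcript as length CTSB was first in PNU282987.

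**Figure D3:**
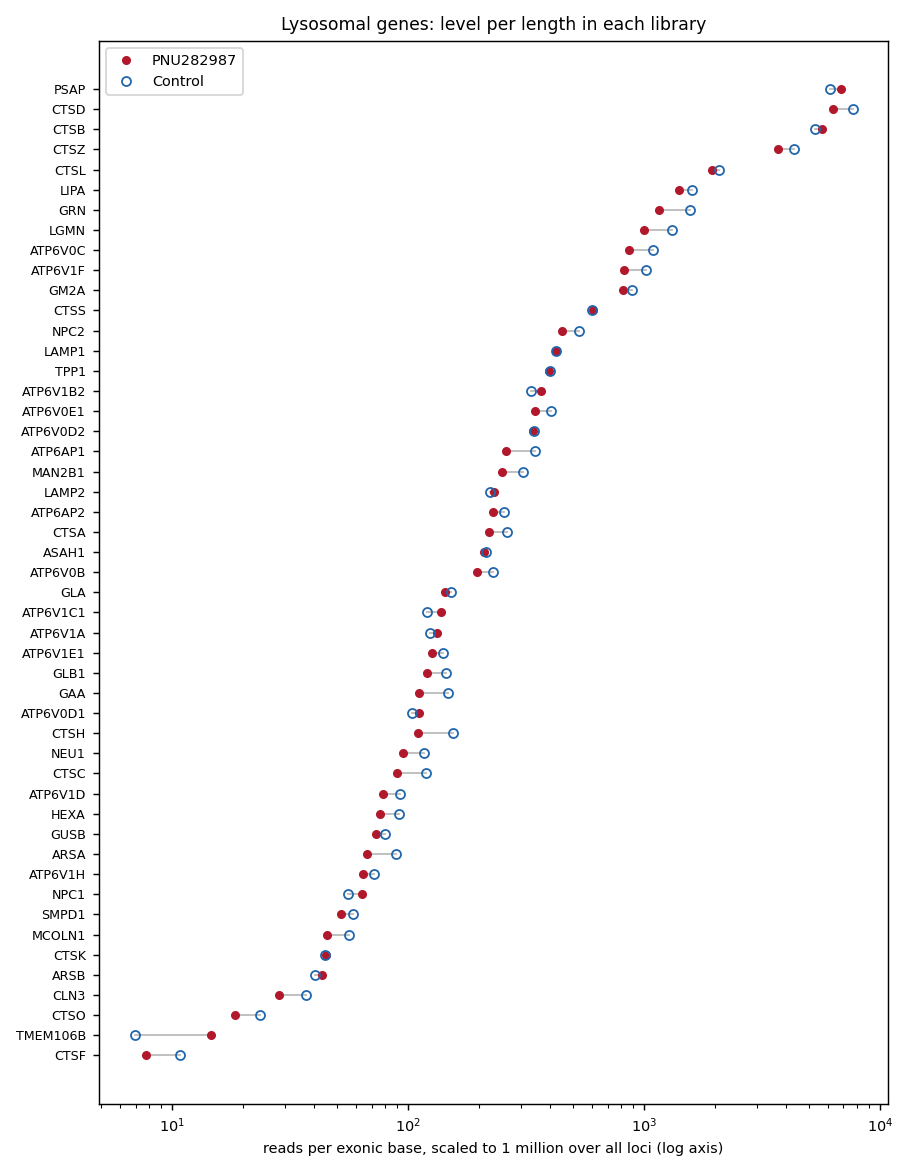
Level per length of each lysosomal gene on a log axis, in the PNU282987 library and in the Control library, 1 library each. Levels span from 6835 for PSAP to 7.73 for CTSF in PNU282987, and most pairs of points lie close together.

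The 13 cathepsins and other proteases were the largest part of the set, with 2.59% of PNU282987 reads and 2.86% of Control reads. Their median log2 ratio was -0.35, or -0.15 trend-subtracted. Of the 13, 12 had a ratio under 1, and the counting interval lay below equality for 11, above it for 1 and across it for 1. The most expressed of them split. CTSB, a cysteine protease that cuts both inside proteins and at their carboxyl ends, had 12502 CPM in PNU282987 and 12423 CPM in Control, a log2 ratio of 0.0092. CTSD, the main aspartic protease of the lysosome, had 5895 CPM in PNU282987 and 7562 CPM in Control, a log2 ratio of -0.36 (counting interval -0.37 to -0.35). CTSZ, a carboxypeptidase, had 2237 CPM in PNU282987 and 2793 CPM in Control, and CTSL, an endopeptidase, had 1366 and 1548 CPM in the same order. On the log2 scale CTSZ had a ratio of -0.32 and CTSL of -0.18. Trend-subtracted, CTSD, CTSZ and CTSL were all close to equality, at -0.094, -0.092 and -0.052, and CTSB was at 0.063.

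The lowest ratio of all 49 genes was that of CTSH, an aminopeptidase with a role in surfactant protein processing in the lung and a gene at chr15:78921058-78945046, at 193 CPM in PNU282987 and 288 CPM in Control. Its log2 ratio was -0.58 (counting interval -0.62 to -0.53), or 1.49-fold lower, just inside the 1.5-fold rule. CTSF followed at -0.57 from only 243 reads in PNU282987 and 386 in Control, and its wide interval ran from -0.81 to -0.34; trend-subtracted it was -0.35. CTSC, the dipeptidyl peptidase that activates the serine proteases of granulocytes and other immune cells, had 306 CPM in PNU282987 and 430 CPM in Control, a log2 ratio of -0.49 that was -0.74 trend-subtracted. The granulocyte progenitor markers, which include such serine proteases, had a median log2 ratio of -0.82 in the same libraries, or -0.52 trend-subtracted. LGMN, the asparaginyl endopeptidase that processes other cathepsins, had 1164 CPM in PNU282987 and 1616 CPM in Control, a log2 ratio of -0.47. CTSO, a cysteine protease, had 16.2 CPM in PNU282987 and 21.9 CPM in Control.

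Smaller differences were measured for the last 3 proteases. CTSS, which trims the invariant chain of MHC class II in antigen-presenting cells, had 765 CPM in PNU282987 and 803 CPM in Control, a log2 ratio of -0.070 that was -0.22 trend-subtracted, with intervals below equality for both. CTSK, the collagen-degrading cathepsin of osteoclasts, had 25.2 CPM in PNU282987 and 26.4 CPM in Control, and its interval (-0.19 to 0.066) crossed equality. TPP1, a tripeptidyl peptidase lost in a form of neuronal ceroid lipofuscinosis, had 770 CPM in PNU282987 and 824 CPM in Control.

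CTSA is a serine carboxypeptidase that also protects beta-galactosidase (GLB1) and the sialidase NEU1 in a shared complex. All 3 genes of this complex were lower in PNU282987. CTSA had 383 CPM in PNU282987 and 487 CPM in Control, a log2 ratio of -0.35. GLB1 had 156 CPM in PNU282987 and 199 CPM in Control, also -0.35, and NEU1 had 136 CPM in PNU282987 and 177 CPM in Control, or -0.38. Trend-subtracted, the log2 ratios spread to -0.15 for CTSA, -0.25 for GLB1 and -0.37 for NEU1. CTSA overlaps the phospholipid transfer protein gene PLTP, and whether strand was used in counting is not given. With the reads of overlapping loci added, its log2 ratio was -0.44, and that of GLB1, which overlaps 4 other loci, was -0.27. In all 11 of the 49 genes overlap another locus, and no ratio moved by more than 0.1 when those reads were added.

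The 9 glycosidases and sulfatases, which remove sugars and sulfate from glycogen, glycoproteins, glycolipids and glycosaminoglycans, took up 0.152% of PNU282987 reads and 0.189% of Control reads. Their median log2 ratio was -0.35, or -0.22 trend-subtracted, and 8 of the 9 were lower in PNU282987 with the counting interval below equality. ARSA, the sulfatase of sulfatide breakdown, had 58.2 CPM in PNU282987 and 82.3 CPM in Control, a log2 ratio of -0.50 that was -0.21 trend-subtracted. GAA had 171 CPM in PNU282987 and 240 CPM in Control, a log2 ratio of -0.49 that was -0.27 trend-subtracted. MAN2B1, an alpha-mannosidase, had 400.4 CPM in PNU282987 and 519 CPM in Control, which gave it the most CPM of the 9, with a log2 ratio of -0.37, or -0.22 trend-subtracted. HEXA, the alpha chain of beta-hexosaminidase, had 285 CPM in PNU282987 and 365 CPM in Control, a log2 ratio of -0.35. Smaller differences were seen for GUSB, the beta-glucuronidase, with 86.9 CPM in PNU282987 and 101 CPM in Control, and GLA, the alpha-galactosidase lost in Fabry disease, with 96.8 CPM in PNU282987 and 109 CPM in Control. Trend-subtracted, GUSB was at -0.092 and GLA at -0.039, where the interval of GLA crossed equality (-0.10 to 0.026). The exception was ARSB, a sulfatase of dermatan and chondroitin sulfate, with 116 CPM in PNU282987 and 115 CPM in Control (-0.053 to 0.069), although its trend-subtracted ratio was -0.064 (-0.12 to -0.0027).

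The 8 lipid-handling genes took up 1.27% of PNU282987 reads and 1.35% of Control reads, with a median log2 ratio of -0.24. Of these, 6 were lower and 2 higher, each with an interval that excluded equality. PSAP, whose product is cut into the saposins that help sphingolipid hydrolases, had 6593 CPM in PNU282987 and 6294 CPM in Control, a log2 ratio of 0.067 that was 0.19 trend-subtracted. GRN encodes progranulin, a partner of prosaposin on its way to the lysosome. It went the other way, with 1271 CPM in PNU282987 and 1827 CPM in Control, a log2 ratio of -0.52 (counting interval -0.54 to -0.51) and the third lowest of all 49 genes. Trend-subtracted, it was -0.29.

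A second pair of partners also split. NPC2 passes free cholesterol to NPC1, the membrane protein that moves it out of the lysosome. NPC2 had 368 CPM in PNU282987 and 459.5 CPM in Control, a log2 ratio of -0.32, whereas NPC1 had 192 CPM in PNU282987 and 177 CPM in Control, a log2 ratio of 0.11 (counting interval 0.066 to 0.16). LIPA, the acid lipase that frees cholesterol from its esters, had 2048 CPM in PNU282987 and 2471 CPM in Control, a log2 ratio of -0.27. GM2A, the activator that presents GM2 ganglioside to beta-hexosaminidase, had 1081 CPM in PNU282987 and 1260.4 CPM in Control. SMPD1, the acid sphingomyelinase, had 42.4 CPM in PNU282987 and 50.8 CPM in Control, a log2 ratio of -0.26, and ASAH1, the acid ceramidase, had 961 CPM in PNU282987 and 1036 CPM in Control, a log2 ratio of -0.11. Their order turned when the trend was subtracted: SMPD1 was at -0.054 with an interval across equality (-0.15 to 0.043) and ASAH1 at -0.37 (-0.39 to -0.34).

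The 5 membrane genes took up 0.131% of PNU282987 reads and 0.136% of Control reads and held both large and small differences. Among the main structural glycoproteins, LAMP1 had 724 CPM in PNU282987 and 768 CPM in Control, and LAMP2, which also serves chaperone-mediated autophagy, had 381 CPM in PNU282987 and 388 CPM in Control, with an interval (-0.059 to 0.0079) that crossed equality. Trend-subtracted, LAMP2 was lower in PNU282987, at -0.20 (-0.23 to -0.16), and LAMP1 was at -0.11. CLN3, a membrane protein lost in juvenile neuronal ceroid lipofuscinosis, had 82.8 CPM in PNU282987 and 115 CPM in Control, a log2 ratio of -0.47. MCOLN1 had 53.2 CPM in PNU282987 and 70.1 CPM in Control, a log2 ratio of -0.40 that was -0.16 trend-subtracted.

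TMEM106B, a lysosomal membrane protein whose variants modify the risk of frontotemporal dementia, was the gene that stood furthest from the others. The gene lies at chr7:12211294-12243367 (GRCh38). It had 2196 reads in PNU282987 and 1181 in Control, that is 60.2 CPM in PNU282987 and 30.3 CPM in Control. Its log2 ratio was 0.99 (counting interval 0.89 to 1.09), or 1.99-fold higher, just under the 2-fold rule, which it passed with unscaled library totals (log2 ratio 1.02). The next highest ratio in the set was 0.11, for NPC1. TMEM106B also had the lowest GC content of the set, at 34.0%, and a longest transcript of 12539 bases. Of the 13164 loci in the fit over GC content and length, 242 had a longer one. After removal of the trend of ratios over GC content and transcript length, its log2 ratio was 0.47 (counting interval 0.37 to 0.57), still the highest of the 49.

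The 14 proton pump genes took up 0.421% of PNU282987 reads and 0.472% of Control reads, with a median log2 ratio of -0.24, or -0.16 trend-subtracted. Of the 14, 10 had a ratio under 1 with the interval below equality, 2 had an interval above it and 2 across it. Among the 5 genes of the V0 sector, ATP6V0C, which encodes the proteolipid of the proton-carrying ring, had 384 CPM in PNU282987 and 518 CPM in Control, a log2 ratio of -0.43 that was -0.14 trend-subtracted (63.6% GC). ATP6V0B, a second proteolipid of the ring, had 206 CPM in PNU282987 and 256 CPM in Control, and the small subunit gene ATP6V0E1 had 166 and 207 CPM in the same order; trend-subtracted they were at -0.15 and -0.23. ATP6V0D1 and ATP6V0D2 encode alternative d subunits, the first widespread and the second best known from osteoclasts and macrophages. ATP6V0D1 had 272 CPM in PNU282987 and 269 CPM in Control, and ATP6V0D2 had 304 CPM in PNU282987 and 324 CPM in Control. Trend-subtracted, ATP6V0D1 was at 0.16 (0.12 to 0.20) and ATP6V0D2 at -0.11.

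The 7 genes of the V1 sector were of 2 kinds. ATP6V1A and ATP6V1B2, which encode the subunits that form the ATP-hydrolysing head, and ATP6V1C1, a stalk subunit involved in joining the sectors, had ratios slightly over 1, which were under 1 after removal of the GC and length trend (-0.14, -0.20 and -0.10 on the log2 scale). ATP6V1A had 202 CPM in PNU282987 and 199.9 CPM in Control, and its counting interval (-0.029 to 0.063) crossed equality. ATP6V1B2 had 853 CPM in PNU282987 and 821 CPM in Control, and ATP6V1C1 had 239 CPM in PNU282987 and 222 CPM in Control. The other 4, which encode subunits of the stalks and the regulatory subunit H, were lower. ATP6V1F had 192 CPM in PNU282987 and 255 CPM in Control (log2 ratio -0.41), ATP6V1D had 98.9 and 124 CPM in the same order (-0.32), ATP6V1E1 had 120.4 and 143 CPM (-0.25), and ATP6V1H had 97.3 and 115 CPM (-0.24). Base composition moved with this split. The first 3 genes had GC contents of 39.7 to 40.6% and the other 4 of 45.2 to 54.3%. After removal of the GC and length trend all 7 V1 genes had ratios under 1, with a median log2 ratio of -0.17, the value of ATP6V1F.

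The 2 accessory genes were both lower. ATP6AP1, which takes part in assembling the V0 sector, had 379 CPM in PNU282987 and 534 CPM in Control, a log2 ratio of -0.49 and the lowest of the pump. ATP6AP2, also known as the prorenin receptor, had 655 CPM in PNU282987 and 771 CPM in Control, a log2 ratio of -0.24. Expression of the pump in CPM by subunit shows these differences as small steps between the 2 libraries. CPM is not divided by gene length, so it does not order the subunits by level.

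**Figure D4:**
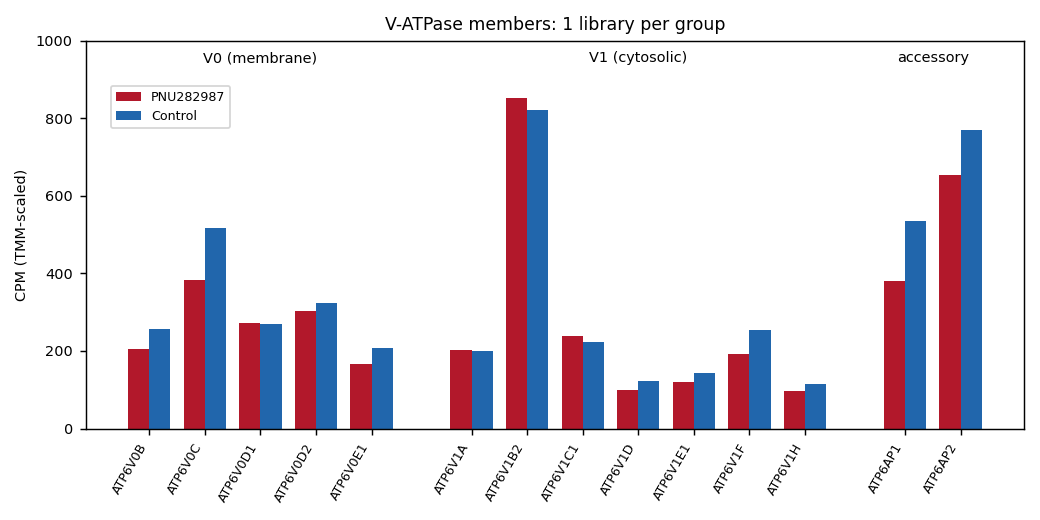
CPM of the 14 proton pump genes, grouped into V0, V1 and accessory genes, with the PNU282987 bar left of the Control bar, 1 library per group and no error bars. ATP6V0C (384 in PNU282987, 518 in Control) and ATP6AP1 (379 in PNU282987, 534 in Control) show the widest gaps in CPM, of which that of ATP6V0C was -0.43 on the log2 scale and -0.14 trend-subtracted, and ATP6V1B2 is the tallest pair. Bars are not divided by gene length. Per length in PNU282987, ATP6V1B2 had a level of 366, under ATP6V0C at 861 and ATP6V1F at 819.

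Genes that act on or beside these proteins were taken from lists. Among 39 other measured hydrolases the median log2 ratio was -0.27, the value of the 49 genes, and 33 were lower in PNU282987. FUCA1, which removes fucose from glycoproteins, was 2.12-fold higher at 823 CPM in PNU282987 and 388 CPM in Control. ACP5, the tartrate-resistant acid phosphatase, was 2.03-fold lower at 186 CPM in PNU282987 and 378 CPM in Control. Trend-subtracted, the log2 ratio of FUCA1 was 1.17 and that of ACP5 was -0.78, which is within 2-fold. No other hydrolase of the list passed 2-fold. The 33 other lysosomal membrane genes had a median of -0.14, with 20 lower. Of these, LAMP3, a marker of mature dendritic cells, had 173 reads in PNU282987 and 1081 in Control, a log2 ratio of -2.55, and the channel gene MCOLN2 had a log2 ratio of -1.06. The metal transporter gene SLC11A1 had a log2 ratio of 1.05, which was 0.76 with the reads of overlapping loci added.

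Other pump genes were mixed, with a median log2 ratio of -0.093 over 14 measured genes, of which 8 were lower and 0 past 2-fold. The median was 0.042 over the few that overlap no other locus. Of these few, ROGDI, CCDC115 and ATP6V1G1 were lower in PNU282987, and VMA21, WDR7 and DMXL2 were higher. TCIRG1, the a3 subunit of the V0 sector found in osteoclasts and phagocytes, had 392 CPM in PNU282987 and 543 CPM in Control, and ATP6V0A1, the a1 subunit, had 284 CPM in PNU282987 and 282 CPM in Control. DMXL2, which encodes rabconnectin-3, a protein that helps assemble the pump, had 382 CPM in PNU282987 and 265 CPM in Control. Trend-subtracted, TCIRG1 had a log2 ratio of -0.21 in place of -0.47 and DMXL2 of 0.18 in place of 0.53. Sorting genes had a median of 0.072 over 12 genes, or 0.042 trend-subtracted, with 5 lower. The 2 receptors for mannose 6-phosphate had ratios over 1, IGF2R with 838 CPM in PNU282987 and 672 CPM in Control, and M6PR with 574 and 548 CPM in the same order. For IGF2R the log2 ratio was 0.32, or 0.060 trend-subtracted, and for M6PR 0.066 and 0.099.

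The genes of the protease inhibitors and of the TFEB family differed in the sign of their medians before, but not after, the GC and length trend was subtracted. Of the 7 inhibitors measured, 5 were lower in PNU282987, with a median log2 ratio of -0.50, or -0.30 trend-subtracted. Trend-subtracted, 4 were under equality and 3 over it. The 2 with ratios over 1 were SERPINB1 and SERPINB6. SERPINB1 had 151 CPM in PNU282987 and 82.0 CPM in Control, a log2 ratio of 0.88, or 0.89 trend-subtracted. SERPINB6 had a log2 ratio of 0.19, or 0.034 trend-subtracted. CST3, the secreted cystatin C, had 296 CPM in PNU282987 and 417 CPM in Control, and CSTB, the cytosolic cystatin B, had 752 CPM in PNU282987 and 1060 CPM in Control. CSTA, cystatin A, had a log2 ratio of -1.10 at 7.98 CPM in PNU282987 and 17.1 CPM in Control. In the TFEB family 3 of 4 genes were higher in PNU282987, with a median of 0.18 that was -0.0069 after the GC and length trend was subtracted. TFEC had 147 CPM in PNU282987 and 128 CPM in Control, a log2 ratio of 0.20 that turned to -0.16 trend-subtracted. TFE3 had 129 CPM in PNU282987 and 159 CPM in Control, a log2 ratio of -0.30, or -0.14 trend-subtracted. The other members were higher by both measures. TFEB had a log2 ratio of 0.16, or 0.34 trend-subtracted, and MITF of 0.27, or 0.12 trend-subtracted.

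**Figure D5:**
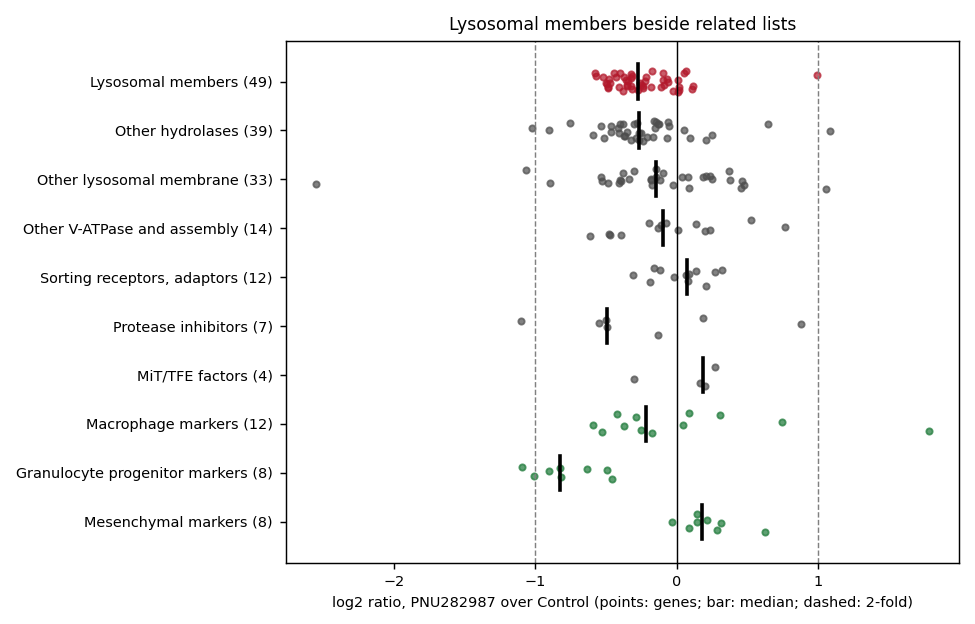
Median log2 ratio of PNU282987 to Control (bars) for the 49 lysosomal genes, the related lists and 3 lists of cell type markers, with each measured gene as a point and 1 library per group. Granulocyte progenitor markers have the lowest median (-0.82, or -0.52 after the GC and length trend is subtracted) and inhibitors the next (-0.50, or -0.30). The other hydrolases (-0.27) match the 49 genes. Macrophage markers have a median of -0.22 (-0.078 after subtraction), where the 49 genes have -0.27 (-0.18). The TFEB family (MiT/TFE factors) lies above equality (0.18), which becomes -0.0069 after the GC and length trend is subtracted.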

How the data were processed

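Whole-number read counts per locus were deposited by the authors, unnormalized per the file headers, for 1 PNU282987 and 1 Control library. Stranded mRNA libraries were made, per the labels' protocols. FastQC 0.11.7, Trimmomatic 0.38, HISAT2 2.1.0, StringTie 2.1.3b, edgeR and GRCh38 are named, per the submitters' processing notes; settings for counting: not given in the sources used here. In PNU282987 979 loci had exactly 2 reads and 817 had 1, and in Control 958 had 2 and 818 had 1. Both mates of a fragment may thus have been counted, and intervals would then be too narrow.

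From these counts, CPM were computed with TMM factors (edgeR 4.0.16, R 4.3.3) on the totals of all 46865 loci, 578 of them assembled. At these totals the floor of 3 reads was 0.0823 CPM in PNU282987 and 0.0770 CPM in Control. Loci whose mean reached 1 CPM were compared. A locus was past 2-fold or 1.5-fold where its ratio was, and its exact 95% Clopper-Pearson counting interval excluded equality. The interval and the 2-fold rule were also run on simulated counts that held counting error only. That run could not check for mates counted singly or for variation between cultures. Tables and intervals were made in Python 3.11.15 with pandas 2.3.3, numpy 2.4.6 and SciPy 1.17.1. Exonic length, and the length and GC content of the longest transcript, came from GENCODE 29, in place of the RefSeq lengths planned, and covered 92.5% of the loci compared. The trend was a least-squares quadratic surface of the log2 ratio over GC content and log length of the longest transcript. Motif windows came from RefSeq GRCh38.p14; proteins were not used here. Alternatives were other scalings, filters, thresholds, lengths and windows, thinning, and removal of overlapping loci. In related lists, up to 4 genes past 2-fold are named by rule, or the 2 with the most reads; others named, such as ATP6V0A1, were chosen after their values were seen. The 49 genes, lists and rules were chosen with earlier results of these data known.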

Additional observations from a re-analysis of the deposited data

How the results depend on the processing

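With 1 library per group no library could be left out. No paired analysis was possible because each group has 1 library. Values of the 49 genes moved beyond their counting intervals mainly under 1 alternative: with the GC and length trend subtracted 36 moved, 2 reversed and 11 did not move, and with unscaled library totals 15 moved. Other scalings and added overlapping reads moved 1 to 2 genes each; thinning and halved counts, which keep ratios by construction, moved 0. TMEM106B passed 2-fold (1 gene higher, in place of 0) with unscaled library totals and with Control thinned to the PNU282987 total. Counts over all loci followed the filter: at 10 CPM or more on average, 181 were 2-fold higher and 141 lower, and 679 were 1.5-fold higher and 541 lower. With at least 10 reads and no CPM filter, 950 were 2-fold higher and 879 lower, and at 4-fold 106 were higher and 60 lower. After the GC and length trend was subtracted, the median of the 49 was -0.18, 829 loci were 1.5-fold higher in place of 1252, and of the 49 genes 0 were 1.5-fold higher and 1, CTSC, lower. How many of all loci were 1.5-fold lower after subtraction is not given here, so the count for CTSC has no background share beside it. ATP6V1B2 (-0.20), ATP6V1C1 (-0.10) and the TFEB family median (-0.0069) reversed. Among the few other pump genes without overlaps, which were named above and lay on both sides of equality, the median reversed to 0.042. Without assembled and mitochondrially encoded loci the 49 genes took 4.92% of PNU282987 and 5.40% of Control reads. The causes were not tested beyond each alternative's construction. Role group medians stayed under 0 in each alternative run.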

Other observations

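Genes linked to osteoclasts, macrophage-lineage cells that secrete acid and proteases onto bone, did not move together. Of the 7 measured, 5 had a ratio under 1 and 2 over 1, and trend-subtracted 3 were under equality and 4 over it. MMP9, a secreted gelatinase, had 1888 CPM in PNU282987 and 4232 CPM in Control, a log2 ratio of -1.16 (counting interval -1.18 to -1.15), and was among the most expressed genes of the list. ACP5 was also past 2-fold lower, and ITGB3, the beta-3 integrin, had 49.6 CPM in PNU282987 and 74.4 CPM in Control. Trend-subtracted, MMP9 and ACP5 were within 2-fold, at -0.93 and -0.78, and OCSTAMP was at 1.22. In contrast DCSTAMP and OCSTAMP, which encode membrane proteins needed for cell fusion, were higher: DCSTAMP had 21.5 CPM in PNU282987 and 15.7 CPM in Control, and OCSTAMP had 81 reads in PNU282987 and 43 in Control, past 2-fold with a wide interval (0.46 to 1.58). NFATC1, the transcription factor of osteoclast differentiation, had 27.5 CPM in PNU282987 and 29.5 CPM in Control, and its interval crossed equality. OSCAR had a log2 ratio of -0.23 (counting interval -0.34 to -0.13), or 0.020 trend-subtracted. CTSK and ATP6V0D2, known in the same cells, had the small differences given above. ITGB3, DCSTAMP, NFATC1 and OSCAR were picked for mention after their values were seen.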
